A study of Mus musculus with 4 samples.

Results

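The genes described here encode mRNA splicing and processing factors, measured by RNA-seq in the pyloric stomach of mice with an inducible deletion of Lats1 and Lats2, the kinases of the Hippo pathway. They were chosen by name, with earlier results of these data known: every gene of the deposited table whose symbol starts with a family name of splicing or mRNA processing proteins (Srsf, Sf3, Snrp, Snrnp, Hnrnp, Prpf, Lsm, Rbm, Rbmx, U2af, Cstf, Cpsf, Dhx, Sart, Thoc, Gemin, Ptbp, Celf, Esrp, Mbnl and Ythd), except Dhx58, which is an interferon-induced RNA sensor. Dhx58 has a row too, and its fall (log2 fold change -2.62, deletion group over WT) was larger than that of any gene kept. The rule found 37 of 2701 listed genes. GENCODE M21 annotates 190 protein-coding genes that match it, so the other 153 have no row and nothing is said of their levels. The table holds only genes with an authors' adjusted p of at most 0.05, and every listed gene had therefore already been called different before it was chosen by name.

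WT mice were Lats1fl/fl;Lats2fl/fl and carried no Cre, so effects of the Cre allele cannot be told apart from those of losing the kinases. Lats1/2iΔLgr5 mice were Lats1fl/fl;Lats2fl/fl;Lgr5-CreER, in which tamoxifen-activated Cre driven by Lgr5 acts on the floxed kinase genes in gland-base cells, whose descendants inherit the change. Both groups were C57BL/6, carried the floxed alleles, and were sampled 8 weeks after tamoxifen, with 2 libraries per group; ages are not given in the labels. RNA came from cryosections of the pylorus, 10 µm thick, which hold unrecombined cells as well as recombined ones, so every level is an average over the tissue. Nothing in the labels states whether libraries of a group came from separate mice, so the p-values measure the spread between these libraries, which may be in part technical. The targeted gene Lats1 had 2152 and 1974 normalized counts across WT, compared with 942.5 and 1129 in Lats1/2iΔLgr5 1 and 2, lower in both libraries of the Cre group; Lats2 has no row. Listed genes held 13413629 to 17689207 counts per library.

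In splicing, the spliceosome removes introns from pre-mRNA. It is assembled from small nuclear ribonucleoproteins (snRNPs), each a small nuclear RNA in a ring of Sm or LSm proteins with specific partners, and it is joined by helicases and by the PRP19 complex. SR proteins, hnRNPs and tissue-specific regulators such as the ESRP, MBNL, CELF and RBM proteins decide which exons are kept, while other complexes cleave and polyadenylate the 3′ end and export the mRNA. ESRP1 and RBM47 are known from mouse and human epithelia as regulators of the epithelial splicing programme.

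Of the 37 genes, 30 were higher and 7 lower in Lats1/2iΔLgr5 by the authors' calls. That is 81.1% higher, against 42.9% of all 2701 listed genes. The authors' p-values imply about 13141 genes tested, of which 8.81% were called higher and 11.7% lower; of the 190 annotated genes of these families, 15.8% were called higher and 3.68% lower. The share called in either direction was 19.5% of annotated genes, beside 20.6% of genes tested. These denominators differ, since annotated genes include some that may not have been tested, so the shares are not directly comparable. The counts are descriptions, and no test was run on the list. The higher genes include all 17 listed components of the core spliceosome, of 54 annotated, from the Sm ring to the helicase Dhx15. The lower genes are mostly regulators of splice choice: Celf4, Rbm47, Mbnl2, Ptbp3 and Esrp1. Beside them are the mRNA-binding protein gene Ythdf2 and the minor spliceosome gene Snrnp25, which is not counted as core here. Regulators were not all lower, since Mbnl1, Srsf7, Hnrnpa1 and Rbmx were among the higher genes.

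The rises were moderate. Summed over the 30 higher genes, levels were 35262 and 36377 normalized counts across WT, compared with 53530 and 58440 in Lats1/2iΔLgr5 1 and 2. The 7 lower genes summed to 34519 and 34102 in WT and to 23018 and 21852 in Lats1/2iΔLgr5. Neither sum overlapped between groups, and the same held for each of the 37 genes, as for 99.9% of all listed genes. The median log2 fold change (edgeR on the authors' size factors) was 0.67 over the higher genes, from 0.42 for Snrnp70 to 1.60 for Rbm19, against 1.09 over all 1158 listed higher genes. A log2 fold change of 1 or more was found in 2 of the 30 higher genes (6.67%), against 57.4% of all listed higher genes. The median base mean of the 30, a mean of normalized counts, was 1043, against 441.4 for all listed higher genes. Across all 37 genes the median was 0.64, against -0.50 across all listed genes.

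The 30 rises were called under each scaling tried, whereas 5 of the 7 falls were not. With TMM scaling computed on the listed genes, log2 fold changes moved up by a median of 0.36, and with DESeq2 size factors computed on the same genes by 0.41. Such a shift favours calls of rises over calls of falls, so the contrast does not show that the rises are firmer than the falls. The 30 higher genes remained called, with log2 fold changes from 0.79 to 1.95 under TMM scaling. Of all listed genes, 42.9% were called higher in either fit, as on the authors' factors. Of the 7 lower genes, Celf4 and Rbm47 alone kept an adjusted p under 0.05 with TMM scaling or with the DESeq2 size factors; in these fits 18.3% and 16% of all listed genes were called lower, against 57.1% on the authors' factors. All 37 were called by edgeR on the authors' factors, a test that is not independent of the authors' selection. Without Lats1/2iΔLgr5 replicate 2 edgeR called 0 of 30 higher and 0 of 7 lower (12 and 4 at an unadjusted p under 0.05), and also called only 0.148% of all listed genes higher and 0.037% lower. Without Lats1/2iΔLgr5 replicate 1 it called 11 higher and 2 lower, against 23.2% and 32.4% of all listed genes. Every one of the 37 kept its direction without any single library, which was bound to happen because in none of them did the groups overlap.

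**Figure D1:**
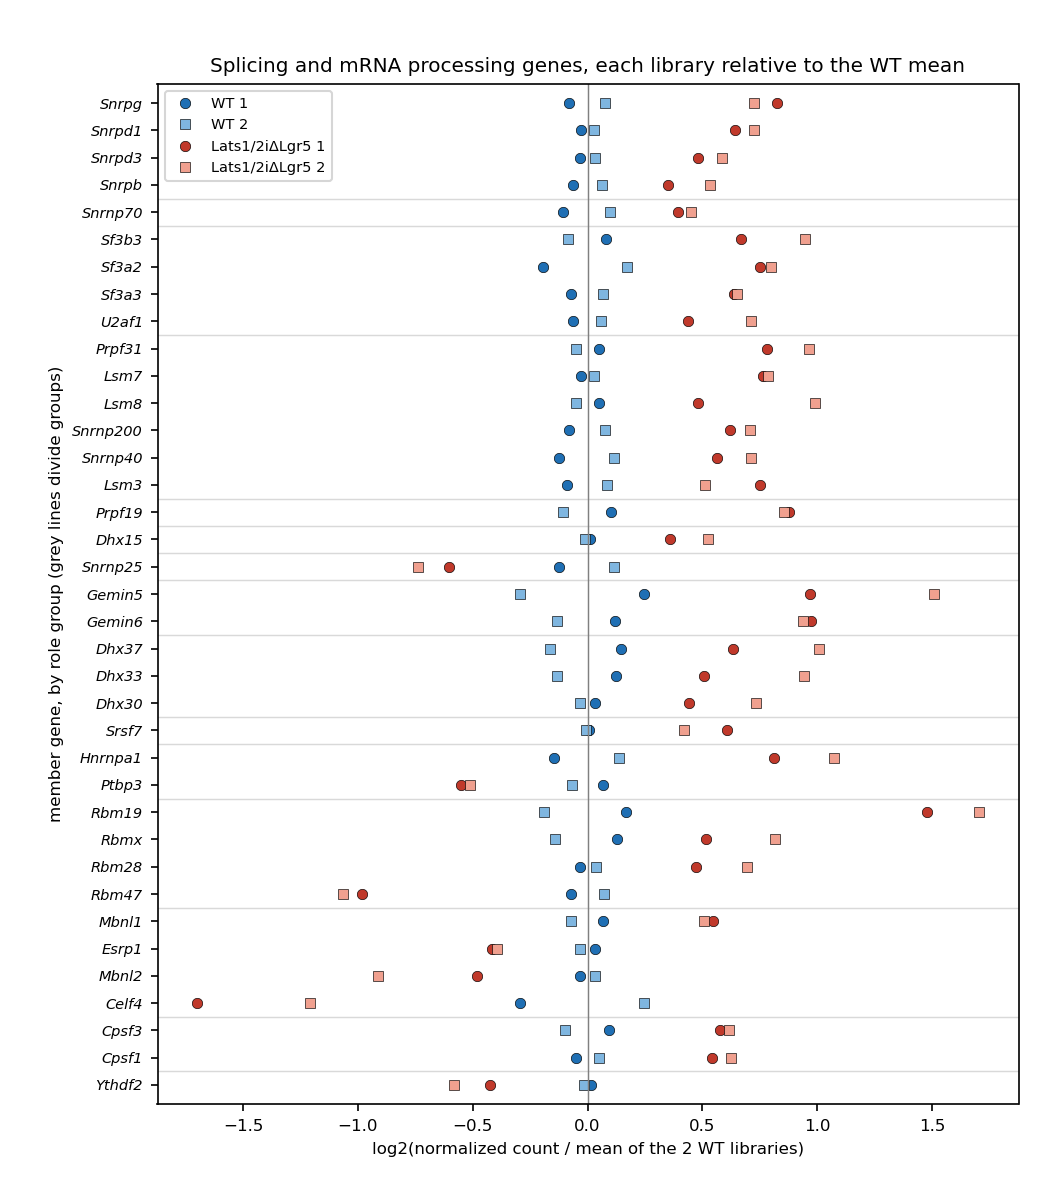
Level of each of the 37 genes in each library, as the log2 ratio of its normalized count to the mean of the 2 WT libraries (x axis), with genes on the y axis by role group; circles and squares are replicates 1 and 2. The 30 higher genes have both Lats1/2iΔLgr5 libraries to the right of both WT libraries and the 7 lower genes have both to the left.

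Promoter windows of a few of these genes are shown. They are from higher genes with motifs that a search found and from Rbm47, the lower gene with the smallest adjusted p. Windows run from 250 bases before to 50 after a transcript start (RefSeq, GRCm38.p6), 5′ to 3′ on the gene's strand. Capitals mark the motif matches. Letters searched on both strands were CACGTG (the E-box bound by Myc and its partner Max), CCGGAAG (the core of ETS factor sites) and GGAATG (the core of TEAD sites); no matches overlapped in the windows shown. Of a gene with several windows, the window with most matches is shown. These 3 motifs and 5 windows were chosen after the values were seen.
Rbm19 (chr5:120116263-120116562, plus strand): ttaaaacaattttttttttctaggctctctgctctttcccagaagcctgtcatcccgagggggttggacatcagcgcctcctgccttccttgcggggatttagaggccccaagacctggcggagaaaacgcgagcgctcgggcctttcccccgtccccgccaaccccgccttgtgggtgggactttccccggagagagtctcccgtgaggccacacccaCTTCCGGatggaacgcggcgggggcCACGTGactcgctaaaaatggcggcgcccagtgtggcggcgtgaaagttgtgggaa
Prpf19 (chr19:10894981-10895280, plus strand): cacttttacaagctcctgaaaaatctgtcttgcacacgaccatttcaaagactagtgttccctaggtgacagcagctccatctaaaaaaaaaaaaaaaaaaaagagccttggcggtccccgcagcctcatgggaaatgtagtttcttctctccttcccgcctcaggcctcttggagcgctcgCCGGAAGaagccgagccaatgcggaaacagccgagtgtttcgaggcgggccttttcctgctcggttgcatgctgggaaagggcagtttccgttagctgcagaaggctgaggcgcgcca
Sf3b3 (chr8:110846754-110847053, minus strand): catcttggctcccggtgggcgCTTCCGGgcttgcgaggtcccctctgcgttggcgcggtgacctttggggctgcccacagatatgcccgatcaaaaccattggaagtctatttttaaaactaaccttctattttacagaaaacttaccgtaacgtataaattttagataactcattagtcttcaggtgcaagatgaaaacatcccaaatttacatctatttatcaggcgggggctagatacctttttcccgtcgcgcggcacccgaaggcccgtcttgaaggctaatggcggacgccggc
Snrpg (chr6:86371290-86371589, plus strand): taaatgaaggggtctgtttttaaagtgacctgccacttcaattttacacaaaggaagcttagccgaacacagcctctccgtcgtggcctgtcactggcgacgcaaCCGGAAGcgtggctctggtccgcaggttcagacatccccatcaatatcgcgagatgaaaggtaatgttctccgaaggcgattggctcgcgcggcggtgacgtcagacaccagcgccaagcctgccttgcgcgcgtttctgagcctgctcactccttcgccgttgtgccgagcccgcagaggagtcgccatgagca
Rbm47 (chr5:66150929-66151228, minus strand): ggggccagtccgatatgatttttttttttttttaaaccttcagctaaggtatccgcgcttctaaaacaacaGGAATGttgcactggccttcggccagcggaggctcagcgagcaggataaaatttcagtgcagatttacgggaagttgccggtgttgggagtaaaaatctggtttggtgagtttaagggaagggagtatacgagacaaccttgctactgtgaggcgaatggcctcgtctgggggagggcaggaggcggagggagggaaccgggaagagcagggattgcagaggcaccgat

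Windows were at hand for 30 of the 37 genes, 26 higher and 4 lower, and a gene was counted when any of its windows held the motif. CCGGAAG occurred in 11 of the 26 higher genes (42.3%) and in 0 of the 4 lower ones, against 20.8% of all listed higher genes, 14.98% of all listed lower genes and 9.93% of 27025 genes with a window. Its 11 holders were Cpsf3, Dhx30, Dhx37, Prpf19, Rbm19, Sf3a2, Sf3a3, Sf3b3, Snrnp200, Snrpg and Srsf7. The motif was not counted in genes of these families without a row. Whether it is particular to those that rose was therefore not tested, and 4 lower genes are too few for a contrast. The E-box CACGTG occurred in 3 of the 26 (11.5%: Dhx33, Mbnl1 and Rbm19), near its 13.7% among all listed higher genes and 8.09% of all genes. In Rbm19 it starts 6 bases before the transcript start. GGAATG occurred in 0 of the 26 higher genes and in Rbm47, against 16.6% of all genes. A match is a string of letters in a window, and neither a match nor its absence says whether a factor binds.

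Sm proteins form the ring around U1, U2, U4 and U5 snRNAs, and all 4 listed Sm genes of 8 annotated rose (median log2 fold change 0.61). Snrpg gave 690.3 and 768.7 normalized counts for WT, whereas it gave 1293 and 1205 for Lats1/2iΔLgr5. Its mean went from 729.5 ± 55.5 to 1249 ± 62.0 (SD, n = 2), and the log2 fold change was 0.78 ± 0.16 (SE) (adjusted p = 7.67e-04, the authors' deposited table). Both Lats1/2iΔLgr5 libraries lay above both WT libraries by far more than either pair differed. Snrpd1, which encodes another ring subunit, had 851.8 and 887.9 normalized counts in WT and 1357 and 1437 in Lats1/2iΔLgr5, a log2 fold change of 0.68 ± 0.15. Snrpd3 rose 1.45-fold and Snrpb, which encodes the SmB subunit, rose 1.36-fold. Per kilobase of annotated exon, Snrpb was the most abundant of these 4 in both groups, at 1103 normalized counts in WT and 1500.1 in Lats1/2iΔLgr5, and Snrpd3 the least, at 297.1 and 429.9. Snrpd2, Snrpe, Snrpf and Snrpn have no row.

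The SMN complex, which loads Sm rings onto snRNA in the cytoplasm, was represented by the genes of 2 of its 6 annotated Gemin subunits, and both rose. Gemin5, whose protein recognises the snRNA, had 315.5 and 217.3 normalized counts in WT and 520.6 and 756.6 in Lats1/2iΔLgr5, so that the groups stood apart although replicates differed within each. Its log2 fold change was 1.26 ± 0.30 (SE), and 0.97 without Lats1/2iΔLgr5 replicate 2. Gemin6 went from 117.2 ± 14.5 to 227.1 ± 4.004 normalized counts (SD, n = 2). A processed pseudogene of Gemin6 is annotated, and reads that match both copies could have been divided or dropped. Among 12 partners of snRNP assembly outside the name rule, Prmt5, the methyltransferase that prepares Sm proteins, went from 347.0 and 241.5 to 701.7 and 800.3 normalized counts. Smn1, the central subunit of the complex, rose 1.72-fold; the remaining 10 have no row.

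The U1 and U2 snRNPs recognise the 5′ splice site and the branch point. Of 17 annotated genes of these snRNPs and of U2AF, 5 were listed and all rose. Snrnp70, the U1 subunit that binds the U1 RNA, had 4219 and 4865 normalized counts in WT and 5971 and 6200 in Lats1/2iΔLgr5. At a log2 fold change of 0.42 ± 0.13 (SE) it was the smallest rise of the 30 (adjusted p = 0.0464, the authors' deposited table). Sf3b3, a scaffold subunit of the SF3B complex, had 1754 and 1562 in WT and 2630 and 3197 in Lats1/2iΔLgr5, a rise of 0.81 ± 0.16 on the log2 scale. The SF3A subunit genes Sf3a3 and Sf3a2 rose 1.56-fold and 1.71-fold, and in Sf3a3 the Lats1/2iΔLgr5 libraries were nearly equal at 1331 and 1342 normalized counts. U2af1, which encodes the small U2AF subunit that reads the 3′ splice site, rose from 1527 ± 91.2 to 2285 ± 306 (SD, n = 2). Sf3b1, the subunit mutated in several cancers, has no row, nor have U2af2 and Sf3a1.

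The tri-snRNP of U4, U6 and U5 brings the catalytic machinery, and 6 of its 19 annotated genes were listed, all of them higher (median log2 fold change 0.71). Prpf31, which holds the U4 RNA, led with 648.6 and 605.5 normalized counts in WT and 1077 and 1224 in Lats1/2iΔLgr5, or 0.88 ± 0.17 (SE) on the log2 scale. Snrnp200, the helicase that unwinds U4 from U6, averaged 1512 ± 114 normalized counts in WT and 2394 ± 99.7 in Lats1/2iΔLgr5 (SD, n = 2). The U5 gene Snrnp40 rose 1.56-fold. The 3 LSm genes Lsm7, Lsm8 and Lsm3 encode subunits of the ring on U6 RNA, of which Lsm8 is found in that nuclear ring and not in the cytoplasmic decay ring. Lsm7 had 209.5 and 218.4 normalized counts in WT and 363.1 and 368.1 in Lats1/2iΔLgr5, with close replicates. Lsm8 was more variable, at 699.0 and 995.7 in Lats1/2iΔLgr5 against 518.7 and 484.2 in WT. Its log2 fold change of 0.76 became 0.48 without Lats1/2iΔLgr5 replicate 2. Prpf8, Prpf6, Sart1 and Sart3 have no row.

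Prpf19, which encodes the ubiquitin ligase that names the PRP19 complex, had 1836 and 1588 normalized counts in WT and 3145 and 3094 in Lats1/2iΔLgr5. Its log2 fold change was 0.87 ± 0.14 (SE), and its adjusted p in the authors' deposited table, 1.62e-05, was the smallest of the 30 rises. Dhx15, the helicase that takes spent spliceosomes apart, had 3748 and 3695 normalized counts in WT and 4772 and 5346 in Lats1/2iΔLgr5, a rise of 0.44 ± 0.13. Both genes were the only ones listed of their role groups, of 6 and 4 annotated genes. The minor spliceosome removes a rare class of introns. Of the 3 annotated genes grouped here as its proteins, 1 was listed, and that gene moved the other way. Snrnp25 had 768.5 and 906.6 normalized counts in WT and 551.4 and 502.6 in Lats1/2iΔLgr5, a log2 fold change of -0.67 ± 0.19 that was -0.31 with TMM scaling (edgeR adjusted p = 0.183).

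Partners of the core machinery that the name rule misses were described from separate lists. Of 22 genes of the PRP19 complex and the catalytic steps, 4 were listed and all rose, among them the cyclophilin gene Ppie, from 294.0 and 273.5 to 492.5 and 559.6 normalized counts, and Aqr, which encodes an intron-binding helicase, 1.55-fold. Of 22 partners of U2 and U5, 3 were listed and all rose: Snu13, which binds U4 RNA, 1.53-fold, the U5 GTPase gene Eftud2 1.65-fold, and Usp39 1.59-fold. The SR-related gene Srrm2 rose 1.31-fold as the only one of 16 SR-related proteins and SR kinases. Over 11 such partner lists, 30 of 198 annotated genes were listed (15.2%), 27 higher and 3 lower, with a median log2 fold change of 0.67. Of the genes the authors tested, 20.6% were called in either direction, 8.81% higher and 11.7% lower; annotated genes include some that may not have been tested. These lists were written with earlier results of these data known.

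**Figure D2:**
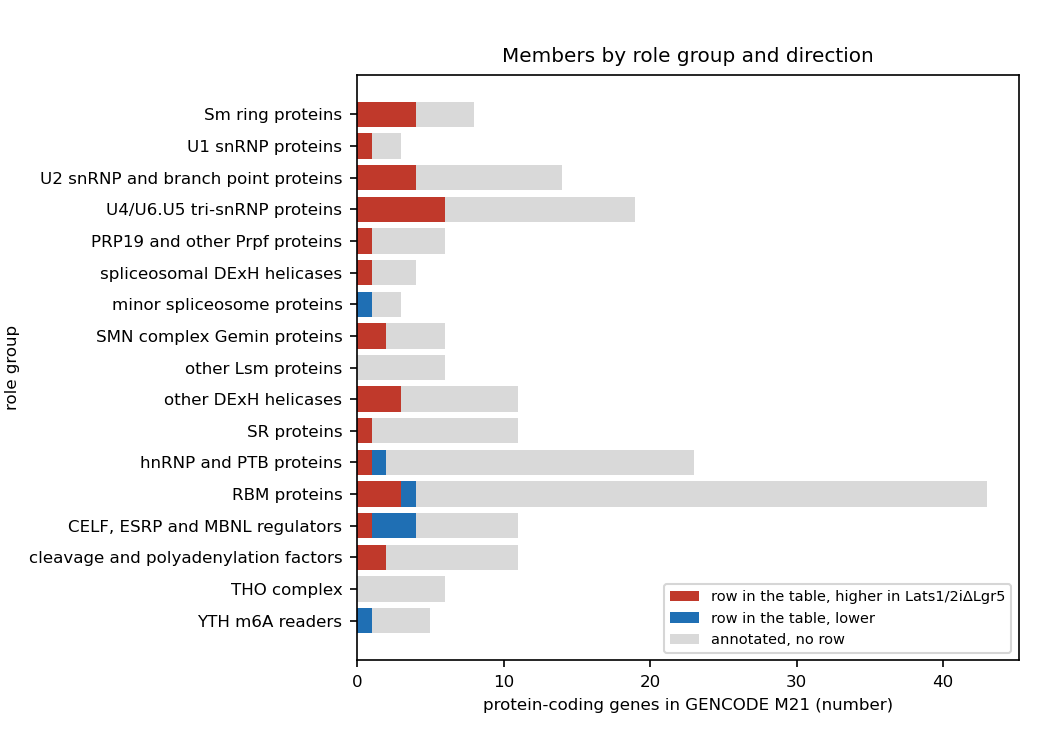
Number of protein-coding genes annotated in each role group (x axis, stacked), divided into those with a row in the table and higher in Lats1/2iΔLgr5, those with a row and lower, and those without a row. The Sm, U1, U2, tri-snRNP, PRP19 and spliceosomal helicase groups hold 17 rows, all higher, of 54 annotated genes, and the group of CELF, ESRP and MBNL regulators holds 1 higher and 3 lower of 11.

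Regulators of splice choice went both ways. Rbm47, which in mouse is an RNA-binding cofactor of RNA editing and a splicing regulator of epithelia, had 5463 and 6034 normalized counts in WT and 2910 and 2752 in Lats1/2iΔLgr5. It fell 2.03-fold, a log2 fold change of -1.02 ± 0.13 (SE), and its adjusted p in the authors' deposited table, 7.56e-09, was the smallest of all 37. With TMM scaling it was -0.66 (edgeR adjusted p = 0.00776). Esrp1, the epithelial splicing regulator, had 6563 and 6268 normalized counts in WT and 4811 and 4874 in Lats1/2iΔLgr5, with no overlap. Its fall of 0.41 ± 0.12 on the log2 scale depended on the scaling: it was -0.05 with TMM scaling (edgeR adjusted p = 0.709) and about 0 with the DESeq2 size factors. Esrp1 is outside the rule for named genes and was singled out after its values were seen, as were Snrpb, Sf3a2, Lsm3, Lsm7, Lsm8 and Rbmx. Its paralog Esrp2 has no row.

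The muscleblind genes, whose proteins bind the same kind of RNA element, moved in opposite directions. Mbnl1 had 2274 and 2067 normalized counts in WT and 3165 and 3084 in Lats1/2iΔLgr5, a log2 fold change of 0.53 ± 0.13 (SE). Mbnl2 had 5907 and 6164 in WT and 4318 and 3208 in Lats1/2iΔLgr5, or -0.68 ± 0.17. In neither gene did the groups overlap. The fall of Mbnl2 was -0.32 with TMM scaling (edgeR adjusted p = 0.125) and -0.48 without Lats1/2iΔLgr5 replicate 2. Per kilobase of exon, Mbnl2 exceeded Mbnl1 in both groups, at 503.3 against 116.0 normalized counts in WT and 313.7 against 166.9 in Lats1/2iΔLgr5. Celf4, a CELF protein best known from neurons, fell most: it had 319.3 and 464.3 normalized counts in WT and 120.4 and 169.6 in Lats1/2iΔLgr5, a log2 fold change of -1.43 ± 0.32 that ranged from -1.70 to -1.14 without a single library. None of 8 neuron and glia markers and none of 7 smooth muscle markers has a row, so their levels are unknown. Ghrl and Sst, 2 of 7 enteroendocrine markers, rose. Their summed normalized counts were 63.1 and 72.8 in WT and 317.8 and 1625 in Lats1/2iΔLgr5 1 and 2, low in WT and far apart between the last 2 libraries. The part of other cell types in the fall of Celf4 was not tested.

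hnRNPs coat nascent transcripts, and Hnrnpa1 was the only one listed of them. It had 3398 and 4135 normalized counts in WT and 6612 and 7911 in Lats1/2iΔLgr5, a log2 fold change of 0.95 ± 0.16 (SE) (adjusted p = 5.65e-05, the authors' deposited table). It was the most abundant of the 30 higher genes per kilobase of exon, at 1195 normalized counts in WT and 2303 in Lats1/2iΔLgr5. Processed pseudogenes of Hnrnpa1 are annotated, so its level is uncertain where reads match several copies. Ptbp3, a paralog of the polypyrimidine tract binding protein, fell from 13099 and 11912 to 8534 and 8759 normalized counts, a log2 fold change of -0.53 ± 0.13 that was -0.17 with TMM scaling (edgeR adjusted p = 0.258). It was the most abundant of all 37 genes per kilobase in WT, at 1672 normalized counts, and in Lats1/2iΔLgr5, at 1156, stood below Hnrnpa1 and Snrpb. Ptbp1, Ptbp2 and the other hnRNP genes have no row, making 2 of 23 listed.

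SR proteins bind exonic enhancers, and Srsf7 alone of 11 was listed. It rose from 2109 and 2086 normalized counts in WT to 3190 and 2801 in Lats1/2iΔLgr5, a log2 fold change of 0.51 ± 0.14 (SE). Rbmx, an X-linked hnRNP-like protein gene, rose 1.59-fold, from 620.9 and 515.1 to 811.3 and 999.6; its retrogene copy Rbmxl1 is annotated and has no row, and reads shared by both cannot be assigned to one. Of 33 further splicing regulators outside the name rule, 4 were listed and all rose, among them Ilf2 1.89-fold, the KH-domain protein gene Khsrp 1.47-fold and Pcbp2, which encodes a poly(C)-binding protein, 1.38-fold.

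Several genes that the rule finds by name serve the nucleolus or mitochondria rather than mRNA, and they rose too. Rbm19, a nucleolar protein needed for ribosome production, had 140.1 and 109.2 normalized counts in WT and 346.8 and 406.4 in Lats1/2iΔLgr5. Its log2 fold change of 1.60 ± 0.27 (SE) was the highest of the 37 (adjusted p = 1.69e-05, the authors' deposited table). Rbm28, also nucleolar, had 710.5 and 745.6 in WT and 1010 and 1178 in Lats1/2iΔLgr5. The helicase genes Dhx37, which acts in small ribosomal subunit assembly, and Dhx33, which acts in rRNA transcription, rose 1.78-fold and 1.67-fold. Dhx30, whose protein supports mitochondrial ribosome assembly, rose from 593.6 ± 19.0 to 895.2 ± 128 normalized counts (SD, n = 2). Exons of Dhx30 overlap those of Smarcc1 on the opposite strand by 123 bases; Smarcc1 also rose, by 0.55 on the log2 scale, and whether counting used the strand is not given in the sources used here. In a list of 20 Myc and nucleolar genes 17 rose and Ldha fell; its part in these rises was not tested.

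At the 3′ end of mRNA, cleavage and polyadenylation factor genes gave 2 listed members of 11, both higher by nearly the same amount. Cpsf3, the endonuclease that cuts the pre-mRNA, had 943.9 and 825.0 normalized counts in WT and 1320 and 1356 in Lats1/2iΔLgr5, a log2 fold change of 0.60 ± 0.16 (SE). Cpsf1, the largest subunit of that complex, had 931.3 and 997.0 in WT and 1402 and 1487 in Lats1/2iΔLgr5, or 0.58 ± 0.15. Per kilobase of exon both stood at similar levels, 167.5 and 171.0 normalized counts in WT. Of 26 partner genes 4 were listed, 2 in each direction: the Integrator gene Ints7 rose 1.83-fold and Nudt21, a subunit of cleavage factor I, by 0.58 on the log2 scale, whereas the poly(A) polymerase gene Papolg fell from 2341 and 2712 to 1475 and 1112 normalized counts (log2 fold change -0.97 ± 0.19; -0.60 with TMM scaling) and Ints6 fell 1.42-fold, a fall of 0.14 with TMM scaling (edgeR adjusted p = 0.459).

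No gene of the THO export complex, of 6 annotated, has a row. Other export genes were listed in 3 of 15 cases and all rose, namely the helicase gene Ddx39b, from 1429 and 1493 to 2516 and 2621 normalized counts, Nxt1, which encodes a subunit of the export receptor, 1.65-fold, and Gle1, an activator of export helicases at the nuclear pore, 1.58-fold. The exon junction complex, which marks spliced mRNA, had 2 of 9 genes listed, Rnps1 and Magoh, higher by 0.59 and 0.45 on the log2 scale. Of cap-related genes, 1 of 9 was listed: Srrt, which links the cap to later steps of RNA handling, rose 1.59-fold. For RNA decay, 4 exosome genes rose, led by Dis3 and Exosc2 at 2.56-fold and 2.15-fold, and Smg1, a kinase of nonsense-mediated decay, fell by 0.58 on the log2 scale (by 0.22 with TMM scaling, edgeR adjusted p = 0.220), in all 5 of 22.

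Readers of the m6A mark had 1 listed gene of 5. Ythdf2, which directs marked mRNAs to decay, had 2399 and 2354 normalized counts in WT and 1772 and 1587 in Lats1/2iΔLgr5, a log2 fold change of -0.50 ± 0.14 (SE) that was -0.14 with TMM scaling (edgeR adjusted p = 0.366). The methyltransferase gene Mettl16 rose 1.68-fold as the only one of 12 writers, erasers and other readers.

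**Figure D3:**
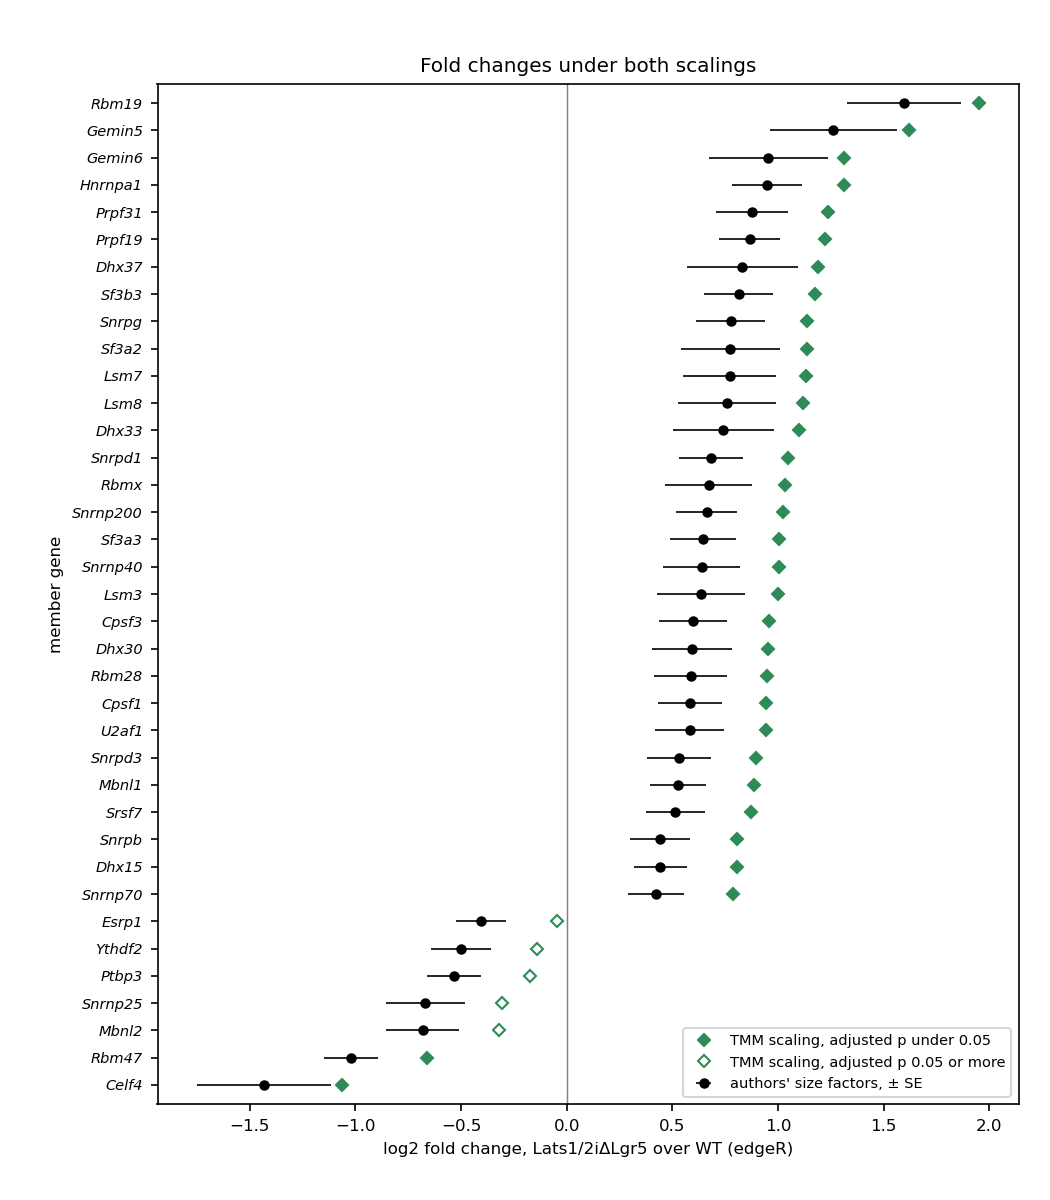
Log2 fold change of each of the 37 genes (x axis, genes on the y axis in order of size), with black points and bars for edgeR on the authors' size factors ± SE and green diamonds for TMM scaling, filled where the adjusted p is under 0.05. All 30 higher genes stay above 0 and filled; of the 7 lower genes Celf4 and Rbm47 are filled and Esrp1 lies at -0.05.

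Markers of cell types and of growth changed too, in both directions. Of 9 gastric epithelium markers 6 were listed and all were lower, with log2 fold changes from -0.72 to -0.52; their summed level was 560333 to 689564 normalized counts in WT and 396062 to 447603 in Lats1/2iΔLgr5. The 7 lower genes Esrp1, Ythdf2, Ptbp3, Snrnp25, Mbnl2, Rbm47 and Celf4 stood at -0.41, -0.50, -0.53, -0.67, -0.68, -1.02 and -1.43 on the same scale. With TMM scaling Elf3 alone of the 6 markers had an adjusted p under 0.05 in edgeR (0.0459). Of 5 surface mucous markers 4 were lower, with sums of 4326070 to 4578810 in WT and 1898610 to 2329380 in Lats1/2iΔLgr5. Of 5 pyloric gland mucous markers Dmbt1 was higher, by 0.93 on the log2 scale, and of 6 parietal and chief cell markers Kcnj15 was lower, at -1.71. Cell cycle genes were listed in 23 of 26 cases, each higher, with sums of 13096 to 19437 in WT and 36712 to 41170.5 in Lats1/2iΔLgr5. The tissue label is epithelium, yet fibroblast genes such as Col3a1 (5869 and 7445 normalized counts in WT) were measured too. Of 7 fibroblast markers 3 were lower, 1 of 6 endothelial markers was lower and 1 of 8 myeloid markers was higher. With TMM scaling the 3 fibroblast markers (edgeR adjusted p from 0.0748 to 0.0844), the endothelial marker Kdr (0.183) and the surface mucous marker Muc5ac (0.196) lost their calls. The fibroblast markers are Col3a1, Col1a2 and Mmp2. Dmbt1, Kcnj15 and the myeloid marker Cd14 kept theirs. In sections of mixed tissue, fewer cells of a type and less RNA per cell cannot be told apart, and the part of these markers in the rises and falls was not tested.

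Within groups, the higher genes leaned to 1 library, as listed higher genes did in general. Of the 30, 24 had a higher normalized count in Lats1/2iΔLgr5 2 than in Lats1/2iΔLgr5 1 (80%), against 70.7% of all listed higher genes. The median ratio between these libraries was 1.09, against 1.11 over all listed higher genes. Gemin5, Lsm8 and Dhx33 had the widest ratios, at 1.45, 1.42 and 1.35. In WT the 30 divided evenly, 15 higher in WT 2. All 17 log2 fold changes of core spliceosome genes lay between 0.42 and 0.88.

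**Figure D4:**
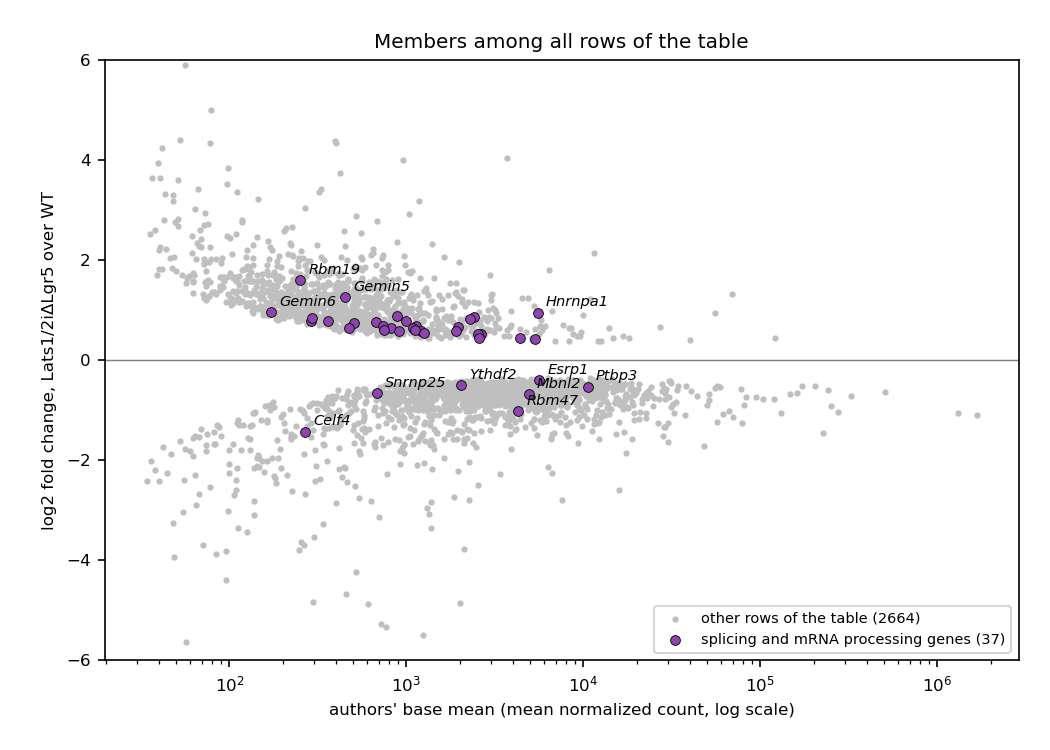
Log2 fold change (y axis, edgeR on the authors' size factors) against the authors' base mean (x axis, log scale) for the 37 genes in purple and the other 2664 rows in grey; 4 rows lie beyond the y axis. The table holds called genes alone, which leaves a gap around 0. Log2 fold changes of the 30 higher members run from 0.42 to 1.60, and their base means from 172.2 to 5514. Their median base mean was 1043, against 1213 over all rows and 441.4 over all higher rows.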

How the data were processed

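RNA from 4 sets of sections was made into stranded mRNA libraries and sequenced as pairs of 75 bp reads, per the labels' protocols. TopHat2 2.1.1, HTSeq, DESeq2 and the build GRCm38 are named, per the submitters' processing notes; whether counting used the strand is not given there. The authors deposited raw counts of 2701 genes in each library. Beside them the deposited table holds a base mean (a signal, the average normalized count), a log2 fold change and its error, the test statistic (a score) and each p-value, raw and adjusted. Adjusted values reach 0.05, and genes beyond were not analysed here. Symbols came from GENCODE M21 (2698 matched). Deposited starts lay 1 base below GENCODE's in 2214 genes, so 1 was added to every start.

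Size factors recovered from base means and counts were 0.792, 0.907, 1.10 and 1.28 (WT 1, WT 2, Lats1/2iΔLgr5 1 and 2) and rebuilt the base means within 0.0119%. Normalized counts are counts divided by these. edgeR 4.0.16 (quasi-likelihood test, filterByExpr, Benjamini-Hochberg at 0.05, genotype as the only factor) was fitted on all listed genes with these factors, after a test on simulated data. Fold changes of single genes are from the fit without the filter. Alternatives were TMM, DESeq2 1.42.0 size factors and Wald test, no filter, a replicate block and leaving out each library. With 2 libraries per group the spread is known only roughly. Replicates differed by more than sampling noise (chi-square over its degrees of freedom: 114 for WT, 108 for Lats1/2iΔLgr5).

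Members, gene lists and role groups were chosen with earlier results of these data known. The rule for named genes takes, per role group, up to 3 with the smallest deposited adjusted p, then the 5 largest rises and 5 largest falls by deposited log2 fold change, then genes moving against most of a role group of 3 or more, and up to 2 genes per partner list. Members and partner genes beyond these were named after their values were seen. Exons overlap a gene on the opposite strand in 12 of the 37 genes (14 to 984 bases). Levels per kilobase use the union of annotated exons.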

Additional observations from a re-analysis of the deposited data

How the results depend on the processing

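The count of 30 higher genes was the same with TMM scaling, DESeq2 size factors, no low-count filter and DESeq2's Wald test, and the count of 7 lower genes with the last 2. With TMM scaling and with DESeq2 size factors 2 genes were called lower, and the median log2 fold change of the 37 was 1.00 and 1.04 in place of 0.64. Leaving out 1 library in turn gave 0 to 23 higher and 0 to 6 lower calls and medians from 0.54 to 0.70, lowest without Lats1/2iΔLgr5 replicate 2 for all 3; the lone library was assumed to vary like the other group. No gene reversed its direction, which leaving out a library could not have shown, since the groups overlapped in none of the 37 genes. Of 30 named genes, 4 lost their call with either scaling.

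Replicate numbers are shared only by number: deviations of same-numbered libraries correlated at -0.155 over listed genes, in 2 pairs. With a replicate block 27 higher and 7 lower genes were called; with crossed numbers, an alternative chosen after seeing the data, 30 and 7. The table holds called genes alone, so no setting tests these calls independently, and the TMM and DESeq2 size factors were computed on these same genes. The cause of the changes with scaling was not tested.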
